A study of Mus musculus with 29 samples.

Results

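The genes of 10 inflammatory cytokines were followed, out of 23930 genes in the deposited table of normalised reads (RPM, the reads of a gene scaled to a fixed total of assigned reads per library). The rule lists them by name and uses no measured value of its own, and all 10 were found: Tnf, Il6, Il1a, Il1b, Il18, Il12a, Il12b, Il23a, Il27 and Ifnb1. The 29 libraries came from untreated mice on a C57BL/6 background that were wild type or lacked both Rnaset2a and Rnaset2b, written Rnaset2-/- here. Age was not given for any group, and RNA was taken soon after cell sorting. The groups were splenic and hepatic Ly6C high macrophages (CD11b+, negative for Ly6G, SiglecF and NK1.1), splenic and hepatic Ly6C low macrophages (the same gate with Fcgr4 in place of high Ly6C) of both genotypes, and wild-type Kupffer cells, sorted as F4/80+ Tim4+ cells with intermediate CD11b. The paper's methods word the gates of both Rnaset2-/- hepatic subsets identically, so how these were told apart is not certain. Each group held 3 libraries, except that the Rnaset2-/- splenic Ly6C low group and the Kupffer cell group held 4. Nothing in the labels states that libraries of a group came from separate mice, so p-values measure only the spread between these libraries.

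RNase T2 is an endosomal ribonuclease, and the study asked how macrophages of the spleen and liver respond, through Toll-like receptors, when RNA is not degraded there. Toll-like receptor signalling classically induces these cytokines through NF-kappaB, AP-1 and interferon regulatory factors. TNF and IL-6 act on vessels, hepatocytes and leukocytes. IL-1α, IL-1β and IL-18 belong to the IL-1 family, and IL-1β and IL-18 are made as precursors that caspase-1 cleaves, so their mRNA is not a measure of secreted protein. IL-12 (the chains of Il12a and Il12b), IL-23 (Il23a with Il12b) and IL-27 (Il27 with Ebi3) are heterodimers that steer T and NK cells, and interferon β is the type I interferon most macrophages make at the start of a response.

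RefSeq promoters on GRCm38.p6, matched by symbol, were at hand for 8 of the 10 genes, and Il23a and Il27 are named only. The 120 bases before the start site are shown for Tnf, Il6, Il1b and Ifnb1, the genes on which the comparisons below turn, 5′ to 3′ on the coding strand, with matches to the NF-kappaB (kappaB) consensus in capitals. The start site of the Il1b entry lies slightly inside the span given for that gene below.
Tnf, chr17:35202008-35202127, minus strand: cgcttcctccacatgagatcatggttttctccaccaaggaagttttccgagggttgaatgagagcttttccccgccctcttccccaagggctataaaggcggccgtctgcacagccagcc
Il6, chr5:30012994-30013113, plus strand: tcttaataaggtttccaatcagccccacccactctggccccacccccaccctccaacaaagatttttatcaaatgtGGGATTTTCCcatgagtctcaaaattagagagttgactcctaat
Il1b, chr2:129371140-129371259, minus strand: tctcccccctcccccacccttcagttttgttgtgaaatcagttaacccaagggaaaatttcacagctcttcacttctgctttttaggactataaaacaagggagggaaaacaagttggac
Ifnb1, chr4:88522795-88522914, minus strand: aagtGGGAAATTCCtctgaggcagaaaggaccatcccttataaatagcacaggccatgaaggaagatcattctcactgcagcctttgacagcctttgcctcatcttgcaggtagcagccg
In the 250 bases before the start, read on both strands, the kappaB consensus was found in Il6 (bases -44 to -35) and Ifnb1 (bases -116 to -107), against 7.25% of 32851 promoters. The letters TGANTCA of an AP-1 site were found in Il1a and Il6 (6.75% of promoters), and TATAAA in Tnf, Il1a, Il1b, Il18 and Ifnb1 (12.4%). The consensus of an interferon-stimulated response element was found in 0 of the 8 genes (2.98% of promoters). These matches describe letters and were not tied to binding. In GENCODE vM21 Ifnb1 has 1 exon, whereas the other 9 genes have at least 3.

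All 10 are protein-coding genes, placed here on GRCm38. Il1a (chr2:129299609-129310186) and Il1b (chr2:129364569-129371164) are neighbours on chromosome 2, and the other 8 lie on 8 other chromosomes. These are Il12a (chr3:68690644-68698550), Ifnb1 (chr4:88522025-88522794), Il6 (chr5:30013114-30019975), Il27 (chr7:126589009-126595035), Il18 (chr9:50554700-50581841), Il23a (chr10:128296140-128298084), Il12b (chr11:44400063-44414677) and Tnf (chr17:35199367-35202007).

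Libraries held 11175843 to 21167602 reads, and 3 reads, used as the detection floor, corresponded to 0.142 to 0.268 RPM. Tnf, Il1b, Il18 and Il27 were above that floor in all 29 libraries, Il6 and Il1a in 28, Il12b in 26, Il12a in 22, Ifnb1 in 15 and Il23a in 8. The assay reads 1 short amplicon per gene, so levels are compared between groups within a gene and not between genes. Fewer cells that make a transcript and less transcript per cell cannot be told apart in these sorted pools. All 6 hepatic Rnaset2-/- libraries held Y-linked reads and almost no Xist, and all 6 wild-type hepatic Ly6C high and Ly6C low libraries held Xist, with at most 52.0 RPM of Y-linked reads, so for the hepatic groups the sex of the mice and their genotype cannot be told apart. In the spleen, Rnaset2-/- Ly6C low library 2 had 301 RPM of Y-linked reads and only 0.781 RPM of Xist. Elsewhere in the spleen Xist ranged from 353 to 744 RPM, and Y-linked reads did not exceed 0.14 RPM. The splenic Ly6C low comparison was therefore not matched for sex, and the part of sex there was not tested. All 7 markers of monocytes and macrophages were detected in every group. The Kupffer cell markers Clec4f and Timd4 were at or under the floor in every wild-type hepatic Ly6C high library and both were detected in Kupffer cells. The targeted genes and the Ly6c genes were not analysed here.

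**Figure D1:**
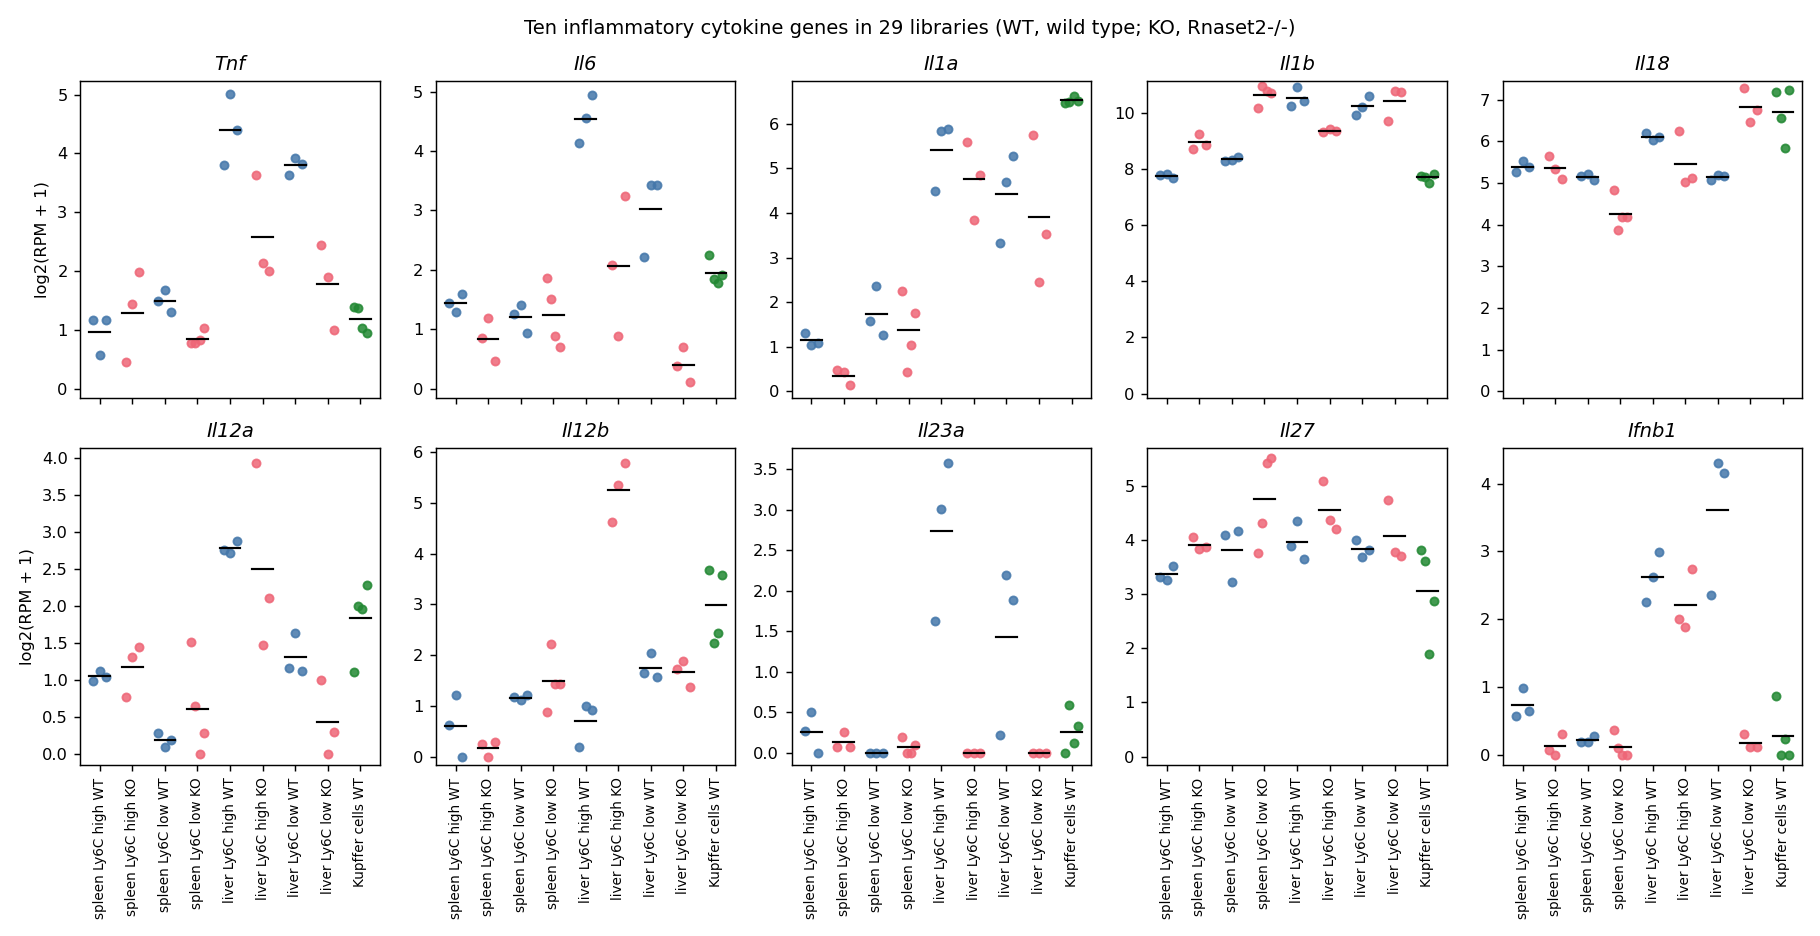
Level of each of the 10 genes, as log2(RPM + 1), in every library of the 9 groups, with a bar at the group mean (blue, wild type; red, Rnaset2-/-; green, Kupffer cells). The highest group means are those of wild-type hepatic Ly6C high macrophages for Tnf, Il6 and Il23a, of Kupffer cells for Il1a, and of Rnaset2-/- hepatic Ly6C high macrophages for Il12b.

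A gene was called higher or lower where limma, fitted on log2(RPM + 1) after scaling of the libraries, gave more than a 1.5-fold difference at an adjusted p below 0.05 over all genes tested. Calls between Rnaset2-/- and wild-type libraries were made in all 4 subsets of spleen and liver. In the spleen Il1b was higher in both subsets, and in the liver Tnf and Il6 were lower in both subsets (Il6 in Ly6C low macrophages being tested through the wild-type group alone), with Il12b higher in Ly6C high and Il18 higher in Ly6C low macrophages. In splenic Ly6C high macrophages 7 of the 10 genes had enough reads to be tested (1 of them only through the wild-type group), 2 were higher (Il1b and Il27; background 9.77% of 10398 genes) and 1 was lower (Il1a; background 12.5%). In splenic Ly6C low macrophages 7 were tested, 1 was higher (Il1b; background 4.05% of 10295 genes) and 1 lower (Il18; background 4.3%). In hepatic Ly6C high macrophages all 10 were tested (1 only through the wild-type group), 1 was higher (Il12b; background 15.7% of 10957 genes) and 4 were lower (Tnf, Il6, Il1b and Il23a; background 14.9%). Il12b had enough reads to be tested mainly through the Rnaset2-/- group, with 1 wild-type library reaching 1 RPM. In hepatic Ly6C low macrophages 9 were tested (2 only through the wild-type group), 1 was higher (Il18; background 20.2% of 10808 genes) and 3 were lower (Tnf, Il6 and Ifnb1; background 22.5%).

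These counts depended on single libraries in the liver. Without Rnaset2-/- library 1 of the hepatic Ly6C high group 8 members were called, and without wild-type library 2 or 3 of that subset 3 were. Without any 1 of the wild-type hepatic Ly6C low libraries 2 were called, since Il6 and Ifnb1 then no longer passed the filter on low values. The splenic Ly6C low count fell from 2 to 1, by loss of Il18, without any 1 of 6 of its 7 libraries (wild-type libraries 1, 2 and 3 and Rnaset2-/- libraries 2, 3 and 4), with log2 fold changes of Il18 from -1.04 to -0.73. With RPM unscaled, 74.6% of the genes called in hepatic Ly6C high macrophages were higher against 51.2% after scaling, the median of all genes being 0.31 against 0.01, and all 5 members remained called. With the wild-type hepatic libraries 2 and 3 left out, a choice made after the data were seen that leaves 1 wild-type library, Il12b alone was called in Ly6C high macrophages, and Il6 and Ifnb1 alone in Ly6C low macrophages. The spread in these fits comes from the Rnaset2-/- libraries, and the lone wild-type library is assumed to vary like them. The genes tested were those of the full fits. Il6 and Ifnb1 in Ly6C low macrophages would otherwise not have passed the filter on low values. In splenic Ly6C high macrophages the same split was 31.2% against 44.0%, and Il27 fell short of 1.5-fold at 0.54.

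**Figure D2:**
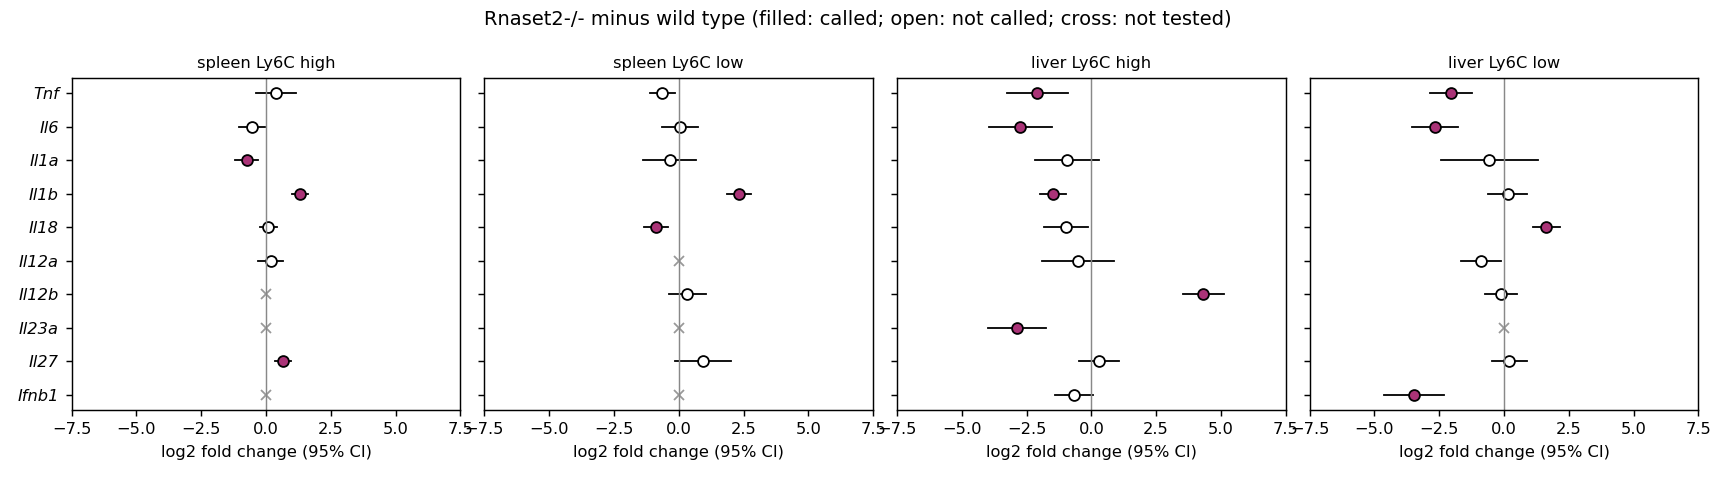
Log2 fold change of each gene, Rnaset2-/- minus wild type, with its 95% confidence interval from limma in the 4 subsets (filled points passed both thresholds, open points did not, crosses were too low to be tested). Il1b lies at 1.30 and 2.32 in the spleen, and Tnf and Il6 lie between -2.05 and -2.74 in the liver.

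Tnf, the founding member of the TNF family, was low in the spleen and in Kupffer cells and highest in the wild-type liver. In wild-type hepatic Ly6C high macrophages its level was 12.9, 31.0 and 20.1 RPM in the 3 libraries, against 11.4, 3.40 and 3.0 RPM in the Rnaset2-/- libraries. The groups did not overlap, but Rnaset2-/- library 1 came close to the lowest wild-type library. Limma gave a log2 fold change of -2.08 ± 0.51 (SE, standard error) with an adjusted p = 0.0191, and the call was lost without wild-type library 2 or 3 or Rnaset2-/- library 2 or 3, with values from -2.64 to -1.74 over all 6 omissions. Hepatic Ly6C low macrophages held 11.4, 14.2 and 13.2 RPM of Tnf in wild-type and 4.46, 2.72 and 0.995 RPM in Rnaset2-/- libraries. Every wild-type library lay above every Rnaset2-/- library (log2 fold change -2.05 ± 0.36 SE, adjusted p = 0.00256). In the spleen no library of either subset exceeded 2.94 RPM. Splenic Ly6C high libraries overlapped (log2 fold change 0.38, adjusted p = 0.415), and Ly6C low libraries, at 1.82, 2.20 and 1.48 RPM against 0.711, 0.710, 0.780 and 1.06 RPM, did not overlap but failed the adjustment (-0.63, adjusted p = 0.0957). In the order of group means, which ran from wild-type hepatic Ly6C high to wild-type Ly6C low, Rnaset2-/- Ly6C high and Rnaset2-/- Ly6C low and then to the spleen and Kupffer cells, every neighbour overlapped the next except wild-type Ly6C low over Rnaset2-/- Ly6C high, whose closest libraries were both at 11.4 RPM.

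Il6, which drives the acute phase response of hepatocytes, was also highest in wild-type hepatic Ly6C high macrophages, above every library of every other group. Its level was 16.6, 22.6 and 29.6 RPM in wild-type and 3.22, 0.850 and 8.46 RPM in Rnaset2-/- hepatic Ly6C high macrophages, without overlap (log2 fold change -2.74 ± 0.52 SE, adjusted p = 0.00761). Ly6C low macrophages held 3.64, 9.76 and 9.75 RPM in wild-type and 0.308, 0.623 and 0.077 RPM in Rnaset2-/- libraries, the latter being 4, 8 and 1 reads. Library 1 was the lowest wild-type library in both subsets. The ratio of reads was 22.8, with a counting interval of 13.1 to 43.5, and limma, which tested the gene because the wild-type libraries alone passed the filter on low values, gave -2.66 ± 0.39 (SE) on the log2 scale (adjusted p = 0.00111). In the spleen Il6 ranged from 0.380 to 2.63 RPM over all 13 libraries, and neither subset passed the test (log2 fold changes -0.55 and 0.04). Kupffer cells held 2.44 to 3.77 RPM.

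Il1b, the IL-1 gene induced most strongly in activated myeloid cells, rose with the loss of RNase T2 in the spleen. In Ly6C low macrophages it was 311, 317 and 348 RPM in wild-type and 1155, 2008, 1776 and 1666 RPM in Rnaset2-/- libraries, a 5.08-fold ratio of means. Every Rnaset2-/- library lay far above every wild-type one (log2 fold change 2.32 ± 0.20 SE, adjusted p = 0.000579). In Ly6C high macrophages it was 220.2, 228 and 206 RPM against 425, 614 and 469 RPM (log2 fold change 1.30 ± 0.14 SE, adjusted p = 8.92e-05). Neutrophil markers moved with this result. Their summed level, over 12 genes, was 1184 to 2542 RPM in wild-type Ly6C low libraries and 40789, 23156, 4556 and 3589 RPM in Rnaset2-/- libraries 1 to 4, and 30745 to 32995 against 33158 to 57922 RPM in Ly6C high libraries. The Rnaset2-/- Ly6C low libraries with the fewest neutrophil marker reads, 3 and 4, held 1776 and 1666 RPM of Il1b. Without libraries 1 and 2 the log2 fold change was 2.46 (limma, adjusted p = 1.90e-06), a choice made after the data were seen. Neutrophil marker reads in libraries 3 and 4 still exceeded those of wild type. Endothelial (1461 to 2202 against 271 to 325 RPM) and Kupffer cell markers (95.4 to 463 against 31.7 to 59.1 RPM) were also higher in Rnaset2-/- Ly6C low libraries. Markers of B cells (45.3 to 109 against 132 to 153 RPM), NK cells (14.8 to 68.6 against 91.5 to 147 RPM) and monocytes and macrophages (12101 to 15196 against 17079 to 17840 RPM) were lower. The part of all these cells in the result was not tested. Rnaset2-/- Ly6C low library 2, the highest in Il1b, was also the splenic library with Y-linked reads. Leaving out any 1 library of this subset kept the call on Il1b, with log2 fold changes from 2.23 to 2.51.

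In the liver no rise of Il1b passed the test. In Ly6C high macrophages it was 1234, 1940.3 and 1385 RPM in wild-type and 644, 693 and 659 RPM in Rnaset2-/- libraries, without overlap (log2 fold change -1.48 ± 0.22 SE, adjusted p = 0.00291). Among Ly6C low macrophages, wild-type libraries held 986, 1179 and 1566 RPM and Rnaset2-/- libraries 849, 1783 and 1738 RPM, so that the groups overlapped on both sides (log2 fold change 0.14, 95% interval -0.62 to 0.89, adjusted p = 0.765). The highest group means, from 1243 to 1651 RPM, were those of Rnaset2-/- splenic Ly6C low, wild-type hepatic Ly6C high, Rnaset2-/- hepatic Ly6C low and wild-type hepatic Ly6C low macrophages, and each neighbour in that order overlapped the next. Kupffer cells (183 to 226 RPM) and wild-type splenic Ly6C high macrophages (206 to 228 RPM) were the lowest and overlapped.

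Il1a, the IL-1 gene whose precursor is already active, was a gene of the liver in these libraries. Kupffer cells held 87.7, 89.6, 98.7 and 89.99 RPM, above every other library. Hepatic Ly6C high macrophages held 21.7, 56.6 and 58.1 RPM in wild-type and 47.1, 13.3 and 28.1 RPM in Rnaset2-/- libraries, and Ly6C low macrophages 9.11, 24.8 and 37.8 RPM against 52.7, 4.44 and 10.5 RPM. Both pairs overlapped, and neither passed the test (log2 fold changes -0.96 and -0.57, adjusted p = 0.205 and 0.605). All splenic libraries were at or under 4.12 RPM. In splenic Ly6C high macrophages 1.46, 1.04 and 1.12 RPM in wild-type libraries stood against 0.378, 0.343 and 0.095 RPM, or 8, 7 and 2 reads, in Rnaset2-/- libraries, a ratio of reads of 4.44 with a counting interval of 2.53 to 8.20 (log2 fold change -0.75, adjusted p = 0.0131). The gene was tested through the wild-type group alone. Fitted with all 29 libraries this call was lost (-0.74, adjusted p = 0.575).

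Il18, an IL-1 family gene that resting macrophages already transcribe, moved in opposite directions in the Ly6C low macrophages of the 2 organs. In the liver it was 32.8, 35.8 and 35.2 RPM in wild-type and 154, 87.5 and 106 RPM in Rnaset2-/- libraries, a 3.35-fold ratio without overlap (log2 fold change 1.64 ± 0.23 SE, adjusted p = 0.000893). In the spleen it was 35.2, 36.0 and 32.9 RPM in wild-type and 27.6, 13.6, 17.1 and 17.3 RPM in Rnaset2-/- libraries (log2 fold change -0.88 ± 0.21 SE, adjusted p = 0.0362). The 2 wild-type groups had nearly equal means of 34.6 and 34.7 RPM. The summed level of 7 Kupffer cell markers moved with the hepatic result, being 128 to 157 RPM in wild-type Ly6C low libraries, 6366 to 11109 RPM in Rnaset2-/- Ly6C low libraries and 6135 to 18888 RPM in Kupffer cells. Kupffer cells themselves held 144, 93.8, 55.9 and 151 RPM of Il18, and their library 3, the lowest, was also the lowest in Kupffer cell markers. The part of Kupffer cell markers in this result, and in those of Tnf, Il6 and Ifnb1 in hepatic Ly6C low macrophages, was not tested. In Ly6C high macrophages Il18 did not pass the test in either organ (0.09 in the spleen and -0.96 in the liver, adjusted p = 0.676 and 0.0809), where hepatic Rnaset2-/- library 1 held 74.6 RPM and libraries 2 and 3 held 31.4 and 33.6 RPM.

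Il12b encodes the p40 chain shared by IL-12 and IL-23. It was 0.154, 1.00 and 0.895 RPM in wild-type hepatic Ly6C high macrophages and 23.5, 39.5 and 54.1 RPM in Rnaset2-/- ones, a 57.1-fold ratio of means. The wild-type libraries held 2, 12 and 10 reads and the groups were far apart (log2 fold change 4.32 ± 0.34 SE, adjusted p = 0.000262). The gene passed the filter on low values mainly through the Rnaset2-/- group, where it was high, since only wild-type library 2 (1.00 RPM) reached 1 RPM. It remained called without each single library, but without any 1 Rnaset2-/- library it was tested only because of that wild-type value. Markers of conventional dendritic cells, which are known to make IL-12, were at 179 to 242 RPM summed over 8 genes in the wild-type and 202 to 279 RPM in the Rnaset2-/- libraries, so that the 2 groups overlapped. Markers of T cells (11.003 to 29.8 against 117 to 333 RPM), B cells (28.2 to 34.98 against 149 to 368 RPM) and NK cells (16.5 to 28.6 against 217 to 490 RPM) were all higher in the Rnaset2-/- libraries. So were those of Kupffer cells (7.59 to 8.23 against 203 to 434 RPM) and erythroid cells (2.86 to 7.34 against 96.5 to 329 RPM). Endothelial markers also rose (81.8 to 120 against 431 to 2526 RPM). Ly6C high monocyte markers were lower (1841 to 2209 against 960 to 1070 RPM). Ly6C low monocyte markers were lower too (5546 to 6137 against 988 to 4782 RPM). The part of all these cells was not tested. In hepatic Ly6C low macrophages Il12b was 2.15, 3.14 and 1.97 RPM against 2.31, 2.72 and 1.61 RPM (log2 fold change -0.12, adjusted p = 0.743). Splenic libraries of all 4 groups held 0 to 3.69 RPM, and Kupffer cells 3.74 to 11.7 RPM.

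Il12a, the p35 chain that limits IL-12 assembly, did not go with Il12b. It was 5.79, 5.59 and 6.35 RPM in wild-type and 14.4, 1.78 and 3.31 RPM in Rnaset2-/- hepatic Ly6C high macrophages. The wild-type libraries were close together, whereas Rnaset2-/- library 1 lay above and libraries 2 and 3 below all of them (log2 fold change -0.53, adjusted p = 0.530). Without library 1 the value was -1.29 and the gene was called lower. In hepatic Ly6C low macrophages 1.24, 2.09 and 1.16 RPM stood against 1.00, 0 and 0.230 RPM, without overlap but short of the threshold (adjusted p = 0.0645). Elsewhere Il12a stayed at or below 3.86 RPM.

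Il23a, the p19 chain of IL-23, was close to the floor outside the wild-type liver. It was 2.08, 7.09 and 11.003 RPM (27, 85 and 123 reads) in wild-type hepatic Ly6C high macrophages, and 0 reads were found in all 6 Rnaset2-/- hepatic libraries. Taking the 3-read floor for each Rnaset2-/- library, the mean was at least 29.1-fold lower in Rnaset2-/- Ly6C high macrophages (adjusted p = 0.00469 from limma, the gene being tested through the wild-type group alone). In Ly6C low macrophages 0.166, 3.57 and 2.68 RPM stood against 0, at least 9.25-fold lower on the same floor, and with 2 wild-type libraries above 1 RPM the gene was not tested by limma (exact permutation test, two-sided, p = 0.1, the smallest that 3 against 3 allows). Splenic libraries held at most 6 reads and Kupffer cell libraries 0, 6, 1 and 3 reads.

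Il27 encodes the p28 chain of IL-27 and was detected in every library. Splenic Ly6C high macrophages held 8.95, 8.604 and 10.5 RPM in wild-type and 15.5, 13.2 and 13.5 RPM in Rnaset2-/- libraries (log2 fold change 0.65 ± 0.14 SE, adjusted p = 0.00561). In the single fit of all 29 libraries the value was the same but the adjusted p was 0.439. In splenic Ly6C low macrophages wild-type libraries held 16.0, 8.30 and 16.8 RPM and Rnaset2-/- libraries 12.5, 18.9, 41.7 and 44.6 RPM. The groups overlapped (log2 fold change 0.94, adjusted p = 0.217), and the 2 highest libraries, 3 and 4, were the ones with the fewest neutrophil marker reads. Hepatic groups overlapped in both subsets (adjusted p = 0.529 and 0.613). Ebi3, which encodes the partner chain, was lower in Rnaset2-/- hepatic Ly6C low macrophages, 45.9 ± 6.02 RPM standing against 68.9 ± 4.08 RPM (SD, 3 libraries each; limma, log2 fold change -0.62, adjusted p = 0.0201).

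Ifnb1 was 4.14, 18.8 and 16.8 RPM (50, 216 and 188 reads) in wild-type hepatic Ly6C low macrophages and 0.231, 0.078 and 0.077 RPM (3, 1 and 1 reads) in Rnaset2-/- ones. The ratio of reads was 101.7, with a counting interval of 43.3 to 315 (limma on log2(RPM + 1), -3.46, SE 0.505, adjusted p = 0.00108). Only the wild-type libraries carried it past the filter on low values. In hepatic Ly6C high macrophages 3.78, 5.17 and 6.98 RPM in wild-type libraries overlapped 2.99, 2.70 and 5.69 RPM in Rnaset2-/- libraries (log2 fold change -0.68, adjusted p = 0.135). Splenic libraries held at most 14 reads. In splenic Ly6C high macrophages 7, 14 and 8 reads stood against 1, 0 and 5, a ratio of 7.02 with a counting interval of 2.86 to 20.7 (exact permutation test, two-sided, p = 0.1, the smallest possible). Olfactory receptor reads, described next, split the same way in these libraries, and their part was not tested. Kupffer cells held 10, 0, 2 and 0 reads.

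The olfactory receptor genes, as a family, rose in the same wild-type hepatic libraries, and they were looked at after the data were seen. The summed level of 1057 olfactory receptor genes was 257, 1454 and 1777 RPM in the 3 wild-type hepatic Ly6C high libraries and 420, 2722 and 1054 RPM in the 3 Ly6C low libraries, against 7.10 to 98.3 RPM in all 13 splenic libraries and 14.9 to 57.2 RPM in the 6 Rnaset2-/- hepatic libraries. Within the spleen it was 86.0 to 98.3 RPM in wild-type and 7.10 to 9.95 RPM in Rnaset2-/- Ly6C high macrophages, and 58.1 to 80.7 against 30.6 to 83.9 RPM in Ly6C low macrophages. Kupffer cell library 3 held 505 RPM and the other 3 held 35.9 to 55.9 RPM. Of the 1037 olfactory receptor genes in GENCODE vM21, 96.6% have their coding sequence within 1 exon. Vomeronasal 1 receptor genes, of which 91.9% do, rose alike (29.6 to 340.2 RPM in the wild-type hepatic Ly6C libraries and at most 11.1 RPM in the spleen), and vomeronasal 2 receptor genes, of which 0 do, held at most 1.64 RPM in any library. Signal from olfactory and vomeronasal 1 receptor genes, most of them of 1 coding exon, thus moved with wild-type liver. Genes of 1 coding exon in general were not examined. Ifnb1 also has 1 coding exon, as do the 10 interferon α genes, which summed to 1.85 to 21.6 RPM in the 6 wild-type hepatic Ly6C libraries and to at most 0.846 RPM in the Rnaset2-/- hepatic libraries. Where the amplicon of each gene lies is not given in the sources used here, and the part of this signal in Ifnb1 and in the other 9 genes was not tested. Kupffer cell library 3, with 505 RPM of olfactory receptor genes, held 0.175 RPM of Ifnb1, 0.087 RPM of Il23a and 1.05 RPM of Tnf, and the Rnaset2-/- hepatic Ly6C high libraries, with 33.3 to 57.2 RPM, held 2.70 to 5.69 RPM of Ifnb1. In the wild-type hepatic libraries, library 1 held the least olfactory receptor signal in each subset, and it was the lowest library for 7 of the 10 cytokine genes in each subset and for 6 in both. How often library 1 was the lowest over all genes was not counted, so these counts do not set the cytokine genes apart from other genes.

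**Figure D3:**
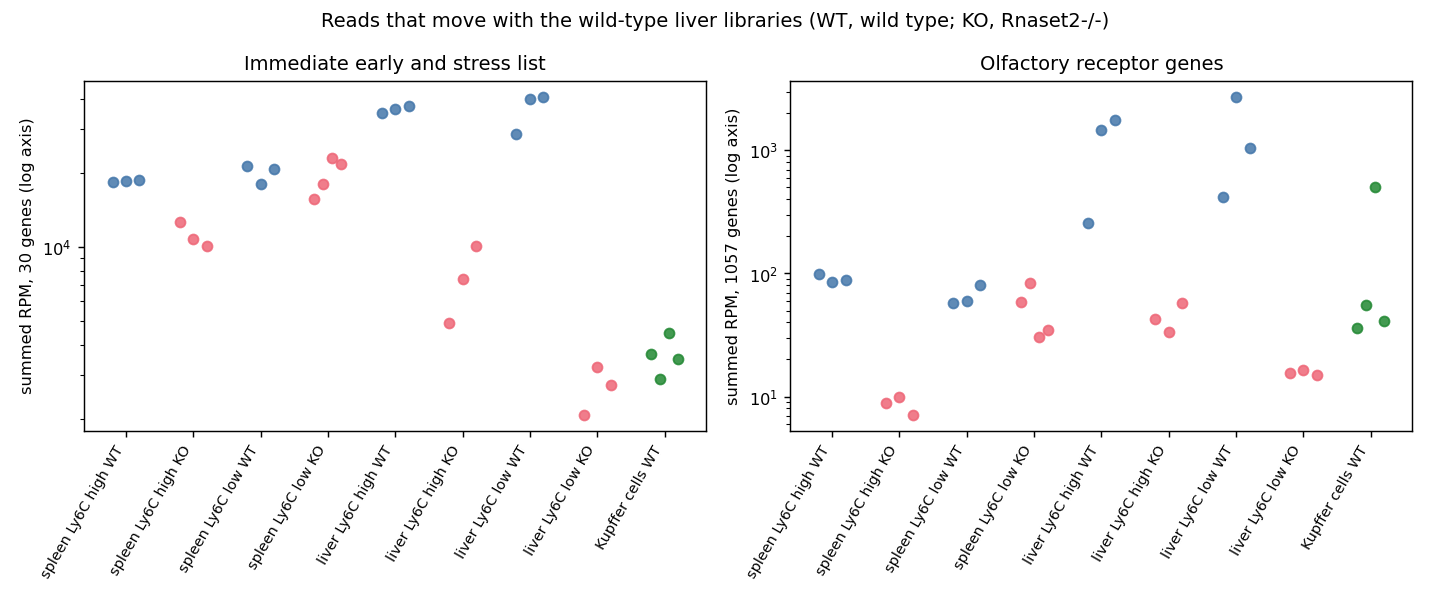
Summed RPM of the 30 immediate early and stress genes (left) and of 1057 olfactory receptor genes (right) in each library, on log axes (blue, wild type; red, Rnaset2-/-; green, Kupffer cells). The 6 wild-type hepatic Ly6C high and Ly6C low libraries hold the highest immediate early sums, from 28866 to 40681 RPM, and each holds more olfactory receptor signal than any splenic library.

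A list of 30 immediate early and stress genes, which respond within minutes to tissue digestion and sorting as well as to receptor signals, also moved with wild-type liver. It summed to 34845 to 37447 RPM in wild-type hepatic Ly6C high and 28866 to 40681 RPM in wild-type Ly6C low libraries, against 4883 to 10073 and 2075 to 3251 RPM in the Rnaset2-/- libraries, 2904 to 4467 RPM in Kupffer cells and 10089 to 22912 RPM in the spleen. Of the 30 genes 25 were lower and 0 higher in Rnaset2-/- hepatic Ly6C high macrophages (median log2 fold change -1.99, against 0.01 over all genes), and 29 were lower and 1 higher in Ly6C low macrophages (median -3.56). Over all genes 14.9% were lower and 15.7% higher in hepatic Ly6C high macrophages, and 22.5% and 20.2% in hepatic Ly6C low macrophages. Egr1, an immediate early transcription factor, was 104 ± 23.7 against 3039 ± 681 RPM (SD, 3 libraries each) in Ly6C high macrophages, and Hspa1a, a heat shock gene, was 37.8 ± 3.03 against 1631 ± 447 RPM in Ly6C low macrophages. In splenic Ly6C high macrophages 19 were lower and 0 higher (median -0.70, over all genes 12.5% and 9.77%), and in Ly6C low macrophages 0 were called (over all genes 4.3% lower and 4.05% higher). The part of this pattern in the lower Tnf and Il6 of Rnaset2-/- liver was not tested.

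Differences between the organs' genotype effects were tested directly. In Ly6C high macrophages, with all 10 genes tested, Il12b had a higher genotype effect in the liver than in the spleen (1 member; background 17.6% of 11398 genes), and Tnf, Il6, Il1b and Il23a had a lower one (4 members; background 16%). In Ly6C low macrophages, with 9 tested, the effect on Il18 was higher in the liver (1 member; background 12.1% of 11308 genes) and that on Tnf, Il6, Il1b and Ifnb1 was lower (4 members; background 14.7%). Il23a in the Ly6C high test and Ifnb1 in the Ly6C low test passed the filter on low values through the wild-type hepatic group alone. Il12b in the Ly6C high test would not have passed it without the Rnaset2-/- hepatic group. Outside that group only splenic wild-type library 2 (1.32 RPM) and hepatic wild-type library 2 (1.00 RPM) reached 1 RPM. The difference for Il1b was -2.75 in Ly6C high (SE 0.26, adjusted p = 1.29e-05) and -2.18 in Ly6C low macrophages (SE 0.41, adjusted p = 0.00204). That for Il18 in Ly6C low macrophages was 2.53 (SE 0.32, adjusted p = 0.000161). The call on Tnf in Ly6C low macrophages was lost without splenic wild-type library 3 or hepatic wild-type library 2 or 3, and the count fell to 3 without hepatic wild-type library 2 or 3. It was also lost with a pseudocount of 0.1 (adjusted p = 0.0980), in 1 fit of all libraries (0.0566) and on recovered reads with edgeR (0.179) and DESeq2 (0.177). The call on Il6 in Ly6C high macrophages was lost with a pseudocount of 0.1 (adjusted p = 0.0811), with no filter (0.0504), with edgeR (0.150) and with DESeq2 (0.0880). Unscaled, 78.9% of the genes called in the Ly6C high test were higher, against 52.4% after scaling.

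Among wild-type mice most of these transcripts were higher in hepatic than in splenic Ly6C subsets. All 9 genes tested in Ly6C high macrophages were higher in the liver (2 of them, Il23a and Ifnb1, passed the filter through the liver alone; background 17.1% of 10681 genes) and 0 were lower (background 20.7%). In Ly6C low macrophages 6 of 9 were higher (Il12a and Ifnb1 through the liver alone; background 18.8% of 10611 genes) and 0 lower (background 15.3%), Il12b, Il18 and Il27 not passing the test. In Ly6C high macrophages the ratios of means were 37.7-fold for Il1a (45.4 ± 20.6 against 1.21 ± 0.221 RPM, SD, 3 libraries each; limma, log2 fold change 4.49, adjusted p = 7.31e-06), 21.4-fold for Tnf (3.63, adjusted p = 1.18e-05) and 13.2-fold for Il6 (3.32, adjusted p = 4.43e-06). Il1b was 6.97-fold higher there and 3.82-fold higher in Ly6C low macrophages. Of the 30 immediate early and stress genes 21 and 22 were higher in the liver in the 2 subsets and 1 was lower in each, and the part of that difference, and of the olfactory receptor signal, was not tested. With the 2 wild-type hepatic libraries of most olfactory receptor signal left out, which leaves 1 hepatic library assumed to vary like the splenic ones, 9 members were called in Ly6C high and 4 in Ly6C low macrophages, where Il1a and Il6 fell short. The genes tested there were those of the full fits. Il23a and Ifnb1 in Ly6C high, and Il12a and Ifnb1 in Ly6C low macrophages, would otherwise not have passed the filter. Unscaled, 25.4% of genes called in Ly6C high macrophages were higher, against 45.2% after scaling, and the 9 members remained called.

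**Figure D4:**
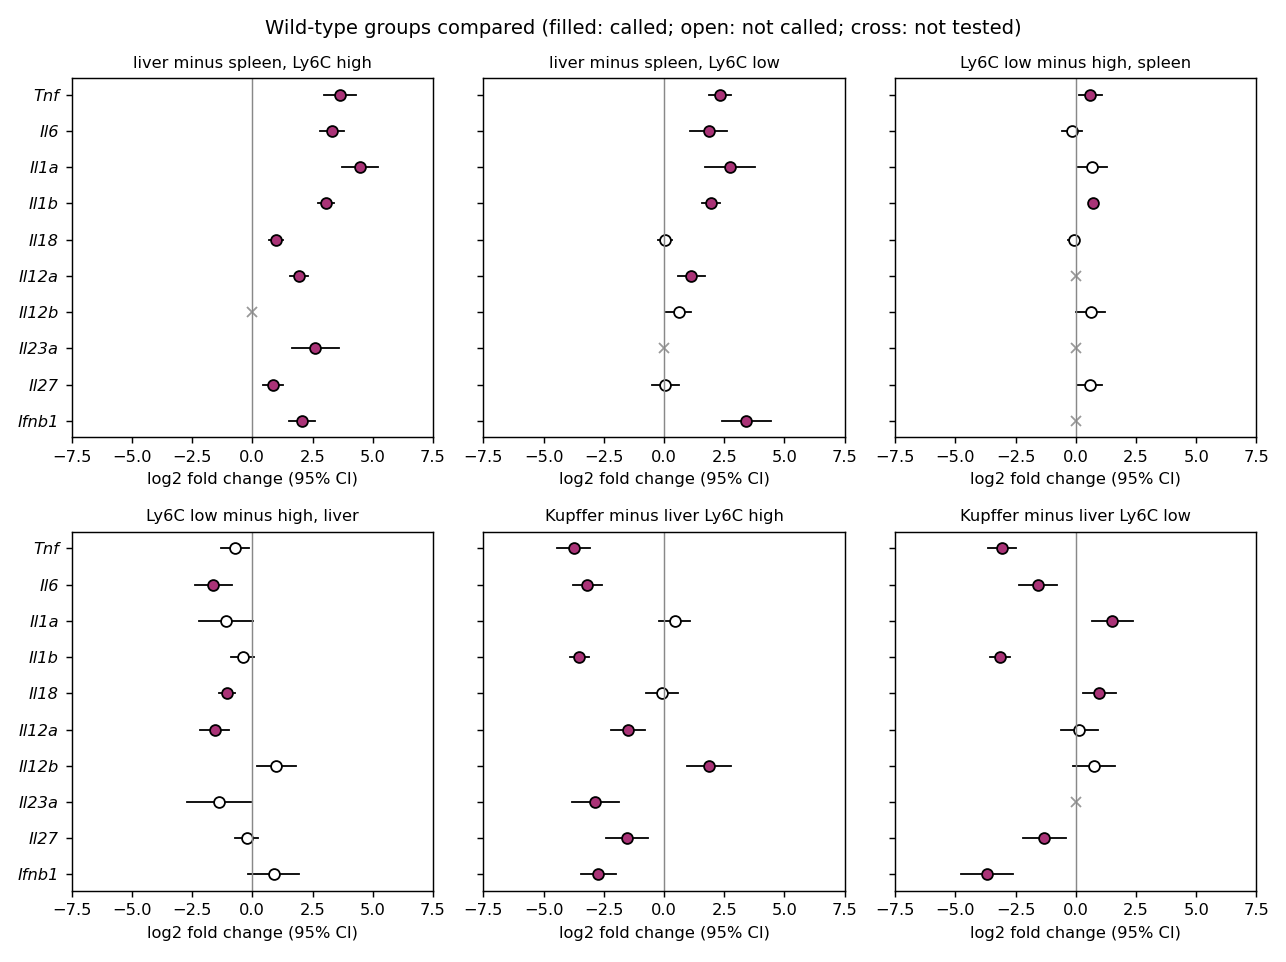
Log2 fold change of each gene between wild-type groups with its 95% confidence interval from limma (filled points passed both thresholds, open points did not, crosses were not tested). All 9 tested genes lie above 0 for liver against spleen in Ly6C high macrophages, and Tnf, Il6 and Il1b lie below 0 in Kupffer cells against both hepatic Ly6C subsets.

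Between wild-type subsets the differences were smaller. In the spleen 7 genes were tested, and Il1b and Tnf were higher in Ly6C low than in Ly6C high macrophages (2 members; background 13.8% of 10521 genes) with 0 lower (background 19.8%). Il1b rose from 218 ± 11.2 to 325 ± 19.8 RPM (SD, 3 libraries each; limma, log2 fold change 0.72, adjusted p = 5.66e-05), and Tnf from 0.998 ± 0.444 to 1.83 ± 0.361 RPM (0.60, adjusted p = 0.0375). The call on Tnf was lost without any 1 of 5 libraries (wild-type Ly6C high 1, 2 and 3 and Ly6C low 1 and 2) and under all 7 other settings, with adjusted p from 0.0518 to 0.364 under those settings. Unscaled, 29.8% of called genes were higher, against 41.1%, and neither gene was called. In the liver all 10 were tested, 0 were higher in Ly6C low macrophages (background 5.24% of 11688 genes) and Il6, Il12a and Il18 were lower (3 members; background 4.84%). Il12a fell from 5.91 ± 0.395 to 1.499 ± 0.515 RPM (-1.57, adjusted p = 0.00522) and Il18 from 68.1 ± 4.16 to 34.6 ± 1.60 RPM (-1.06, adjusted p = 0.00217). Il6 was lower by -1.62 on the log2 scale (adjusted p = 0.0171), a call lost without wild-type Ly6C high library 3 (adjusted p = 0.0556) and with no filter on low values (0.0550). Unscaled, 65.4% of called genes were higher, against 52.0%.

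Kupffer cells, the resident macrophages of the liver sinusoids, held less of most of these transcripts than the hepatic Ly6C subsets of the same genotype. Against Ly6C high macrophages all 10 genes were tested (Il23a and Ifnb1 through the Ly6C high group alone), 1 was higher (Il12b; background 29.3% of 12531 genes) and 7 were lower (Tnf, Il6, Il1b, Il12a, Il23a, Il27 and Ifnb1; background 25.3%). For Il12b only Ly6C high library 2 (1.00 RPM) reached 1 RPM outside Kupffer cells. Against Ly6C low macrophages 9 were tested (Ifnb1 through the Ly6C low group alone), 2 were higher (Il1a and Il18; background 26% of 12515 genes) and 5 were lower (Tnf, Il6, Il1b, Il27 and Ifnb1; background 24%). Tnf was 1.298 ± 0.365 RPM in the 4 Kupffer cell libraries and 21.4 ± 9.14 RPM in the 3 Ly6C high libraries (SD; limma, -3.74 on the log2 scale, adjusted p = 1.52e-06). Il1b was 209 ± 18.3 RPM against 1520 ± 372 RPM (-3.52, adjusted p = 4.30e-08). Il1a was higher in Kupffer cells, 91.5 ± 4.88 RPM against 23.9 ± 14.4 RPM in Ly6C low macrophages (1.52, adjusted p = 0.00645), and was not called against Ly6C high macrophages (0.45). The call on Il18 against Ly6C low macrophages was lost without Kupffer cell library 1 or 4 or Ly6C low library 1 or 3, and that on Il27 without Ly6C low library 3, with 4 members called without that library. Unscaled, 82.2% and 79.8% of the genes called in the 2 comparisons were higher, against 53.7% and 52.0%, with medians of all genes of 0.67 and 0.55, and Il27 was then called in neither. Markers of hepatocytes (1427 to 4972 RPM) and of endothelial cells (3238 to 6702 RPM) were higher in every Kupffer cell library than in the wild-type hepatic Ly6C libraries (at most 134 and 456 RPM), and their part was not tested.

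Rnaset2-/- hepatic Ly6C low macrophages, whose summed level of 7 Kupffer cell markers was 6366 to 11109 RPM, were compared with wild-type Kupffer cells. A sum does not show how much of each marker they carried. Each of the 7 was above the floor in at least 1 library of these cells, as also in wild-type hepatic Ly6C low macrophages. The paper reports that these cells did not express Tim4 and Clec4f. Of 8 genes tested 2 were higher (Il1b and Il27; background 19.4% of 12127 genes) and 3 were lower (Il6, Il1a and Il12a, Il6 passing the filter through Kupffer cells alone; background 26.3%). For Il12a only Ly6C low library 1 (1.00 RPM) reached 1 RPM outside Kupffer cells. Il1b was 6.97-fold higher, with 1457 ± 527 RPM in 3 libraries and 209 ± 18.3 RPM in 4 (SD; limma, 3.25 on the log2 scale, adjusted p = 5.70e-05). Il18 did not differ beyond the spread (116 ± 34.4 against 111 ± 44.6 RPM; 0.65, 95% interval -0.15 to 1.45, adjusted p = 0.159). Same-numbered libraries of these groups deviated together (r from 0.10 to 0.33), though the groups differ in genotype and cannot share a mouse. With the replicate number as a block Il12a was not called (-1.003, adjusted p = 0.102) and Il18 was called higher (0.85, adjusted p = 0.0342). The call on Il12a was also lost without any 1 of 5 libraries (Kupffer cell 2, 3 and 4, and Ly6C low 2 and 3), that on Il1a without Ly6C low library 2 or 3, and that on Il27 without Kupffer cell library 4 or Ly6C low library 1, and 3 members were called without Kupffer cell library 4 or Ly6C low library 2. Unscaled, 15.9% of called genes were higher, against 42.5%.

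Genes around the cytokines were described by lists. Of 18 receptors, partner chains and antagonists, 15 were tested in splenic Ly6C high macrophages, where 1 was higher and 4 lower in Rnaset2-/- libraries (over all genes 9.77% and 12.5%), and 14 in splenic Ly6C low macrophages, where 0 were higher and 2 lower (4.05% and 4.3%). In hepatic Ly6C high macrophages 5 of 16 were higher and 1 lower (over all genes 15.7% and 14.9%, with a median of 0.26 against 0.01), and in Ly6C low macrophages 1 of 15 was higher and 4 lower (20.2% and 22.5%, median -0.23), which is near or under the share over all genes. Il18bp, the decoy that binds IL-18, was 379 ± 289 against 18.9 ± 2.05 RPM in hepatic Ly6C low macrophages (SD, 3 libraries each; limma, log2 fold change 3.96, adjusted p = 0.000321). Il1r2, the decoy receptor of IL-1, was 0.796 ± 0.0835 against 94.9 ± 28.2 RPM in the same cells (-5.72, adjusted p = 9.88e-06) and 2.31 ± 1.27 against 43.3 ± 32.9 RPM in hepatic Ly6C high macrophages (-3.58, adjusted p = 0.0105). Il1rn, the receptor antagonist, was 32.6 ± 7.78 against 13.99 ± 0.518 RPM in splenic Ly6C high macrophages (1.25, adjusted p = 0.000471). Il18r1, a receptor chain for IL-18, was 14.3 ± 3.65 against 0.280 ± 0.0681 RPM in hepatic Ly6C high macrophages (3.36, adjusted p = 0.000279), beside the T and NK cell markers given above, which mark cells known to carry this receptor.

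Of 6 genes of processing and release, all tested in each subset, 1 was lower in each splenic subset (Nlrp3, the inflammasome sensor, at 96.2 ± 22.6 against 188 ± 12.1 RPM in Ly6C high and 44.8 ± 8.30 against 103 ± 4.38 RPM in Ly6C low macrophages), where Il1b was higher. Over all genes 12.5% were lower in splenic Ly6C high and 4.3% in splenic Ly6C low macrophages. In hepatic Ly6C high macrophages 2 were lower (14.9% over all genes), and in Ly6C low macrophages 3 were lower and 2 higher (22.5% and 20.2%). Nlrp3 was 67.9 ± 24.7 against 226 ± 69.3 RPM and 25.2 ± 12.0 against 121 ± 14.01 RPM in these subsets (log2 fold changes -2.05 and -2.36). Casp4, an inflammatory caspase, was also lower in both (-3.66 and -2.90). Pycard, the inflammasome adaptor, was 157 ± 27.1 against 47.6 ± 3.74 RPM in hepatic Ly6C low macrophages (1.65, adjusted p = 0.000216), and Adam17, which sheds TNF from the membrane, was 111 ± 27.6 against 44.7 ± 6.12 RPM (1.24, adjusted p = 0.00197).

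Of 10 genes of feedback and mRNA decay in the table, 9 were tested in both hepatic subsets, and 6 were lower in Ly6C high and 5 in Ly6C low macrophages, with 0 higher (medians -1.91 and -1.92, with 14.9% and 22.5% of all genes lower). Zfp36, whose protein destabilises Tnf mRNA, was 816 ± 141 against 3287 ± 1828 RPM in Ly6C high and 224 ± 24.7 against 3617 ± 1615 RPM in Ly6C low macrophages (-2.20 and -3.96). Tnfaip3, an inhibitor of NF-kappaB signalling, and Nfkbia, which holds NF-kappaB in the cytoplasm, were lower in both (Tnfaip3 by -2.64 and -2.59, Nfkbia by -2.07 and -2.08). In splenic Ly6C high macrophages 2 of 9 were higher and 4 lower (over all genes 9.77% and 12.5%), and in Ly6C low macrophages 2 of 10 were higher (over all genes 4.05%), among them Il10, the main anti-inflammatory cytokine (115 ± 55.4, n = 4, against 5.90 ± 1.48 RPM, n = 3, SD; 3.96, adjusted p = 0.00110 from limma).

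The genes whose levels ran most like each member were sought among 13980 genes over the 29 libraries, as Pearson r of log2(RPM + 1), a description over libraries that share groups and depth. Tnf was closest to Dcstamp (0.89), Il6 to Ier3 (0.92), Il12a to Txndc17 (0.88), Il12b to Zbtb32 (0.85), Il18 to Lpl (0.92), Il27 to Themis2 (0.78) and Il1b to Egln3 (0.85). Il1a was closest to Alb (0.92), a hepatocyte transcript, followed by Cxcl16 (0.92). Il23a was closest to Cxcl3 (0.96), a neutrophil chemokine, and next to Olfr633 (0.96), and Ifnb1 was closest to Olfr1135 (0.89), which belong to the olfactory receptor genes described above.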

How the data were processed

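Sorted macrophages of the spleen and liver of Rnaset2-/- and wild-type mice were profiled by targeted amplicon sequencing (Ion AmpliSeq Transcriptome, 1 amplicon per gene). Per the methods, the authors aligned and counted reads with the Torrent Suite and its AmpliSeqRNA plug-in and deposited a table of RPM, on build mm10 (GRCm38) per the submitters' processing notes. Libraries held 11175843 to 21167602 reads. Intervals and floors cover counting error only.

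Values were divided by relative log expression factors and fitted as log2(RPM + 1) with limma 3.58.1 (R 4.3.3) for each comparison, on genes reaching 1 RPM in 3 or more fitted libraries, with Benjamini-Hochberg adjustment over all genes tested. Calls needed more than 1.5-fold at adjusted p below 0.05, thresholds taken from the study's methods. Fold changes on this scale understate changes of low genes. Genes too low for limma were given as reads, with exact counting intervals and an exact two-sided permutation test, which cannot go below 0.1 with 3 against 3 libraries. The steps were tested on simulated data.

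RPM were whole multiples of 1 read for 100.0% of values within 0.1 reads, so edgeR 4.0.16 and DESeq2 1.42.0 were run on recovered reads as alternatives, beside another pseudocount (0.1), no filter, no scaling, 1 fit of all 29 libraries, a replicate block and omission of each library. Same-numbered libraries counted as deviating together where r was over 0.1 in every pair. This held only between Rnaset2-/- hepatic Ly6C low macrophages and Kupffer cells, for all 3 pairs (r from 0.10 to 0.33). These groups differ in genotype, so the libraries of a pair cannot come from the same mouse. The members and gene lists were chosen with earlier results of these data known. All members are named. List genes are named where called with a mean of at least 10 RPM in 1 group, at most 6 per list and comparison, and likeness was sought for members with a group mean of at least 5 RPM. Rnaset2a, Rnaset2b and the Ly6c genes were not analysed here.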

Additional observations from a re-analysis of the deposited data

Results flagged for a closer look

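In 10 cases the genotype effect on a member differed between liver and spleen by limma's interaction test, each value being the hepatic minus the splenic log2 fold change. In Ly6C high macrophages the difference was -2.43 for Tnf (adjusted p = 0.0184), -2.18 for Il6 (0.0186), -2.75 for Il1b, -2.80 for Il23a (0.00246) and 4.79 for Il12b (1.69e-05). In Ly6C low macrophages it was -1.43 for Tnf (0.0212), -2.71 for Il6 (0.00202), -2.18 for Il1b, 2.53 for Il18 and -3.37 for Ifnb1 (0.000883). Il23a in Ly6C high and Ifnb1 in Ly6C low macrophages were tested through the wild-type hepatic group alone. Il12b in Ly6C high macrophages would not have been tested without the Rnaset2-/- hepatic group, where it was high. In the hepatic arm of each of these tests the sex of the mice and their genotype cannot be told apart, and wild-type hepatic libraries also held the immediate early and olfactory receptor signals, whose part was not tested. In the 2 groups of 4 libraries no library stood apart by Dixon's test for any gene above the floor there, which leaves out Il23a in Rnaset2-/- splenic Ly6C low macrophages. Groups of 3 libraries were not tested in this way.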

How the results depend on the processing

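Members called moved to 1 from 3 in splenic Ly6C high macrophages in 1 fit of all libraries, and to 1 from 2 in splenic Ly6C low macrophages with no filter, in 1 fit of all libraries and with the replicate block (Il18, adjusted p = 0.0653). With wild-type hepatic libraries 2 and 3 left out the count moved to 1 in hepatic Ly6C high and 2 in Ly6C low macrophages, to 4 for Kupffer cells against Ly6C low macrophages and to 3 in the Ly6C high interaction. The fits without these libraries kept the genes tested in the full fits. For the wild-type splenic subsets the count was 1 with a pseudocount of 0.1, 0 unscaled and 1 in 1 fit of all libraries. For the wild-type hepatic subsets it was 5 with the replicate block. For Rnaset2-/- Ly6C low macrophages against Kupffer cells it was 2 with no filter and 3 with edgeR. Leaving out 1 library at a time gave 2 to 4 members in splenic Ly6C high, 1 to 3 in splenic Ly6C low, 3 to 8 in hepatic Ly6C high and 2 to 5 in hepatic Ly6C low macrophages, 1 to 3 and 2 to 4 between wild-type subsets of spleen and liver, 4 to 8 for Kupffer cells against Ly6C low macrophages, 3 to 5 for Rnaset2-/- Ly6C low macrophages against Kupffer cells, and 4 to 7 and 3 to 6 in the 2 interactions.

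No called member changed direction under any of these settings. Among members not called, directions turned for Il18 in splenic Ly6C high macrophages (-0.028 unscaled), Il6 in splenic Ly6C low macrophages without Rnaset2-/- libraries 1 and 2 (-0.37), Il18 (-0.00300 unscaled, -0.086 without hepatic libraries 2 and 3) and Il27 (-0.00456 with edgeR) between wild-type Ly6C low macrophages of the organs, Il12b (0.00830) and Il1a (0.57) in hepatic Ly6C low macrophages without wild-type libraries 2 and 3, and Il18 in Kupffer cells against Ly6C high macrophages (0.60 unscaled, 0.043 in 1 fit, 0.047 with edgeR, 0.027 with DESeq2). In the Ly6C high interaction they turned for Ifnb1 (1.25 with pseudocount 0.1, 0.19 unscaled, 1.87 with edgeR, 1.92 with DESeq2, 0.30 without libraries 2 and 3), Il1a (0.84, 0.15, 1.19, 1.17 and 0.73 in the same order) and Il27 (0.045 unscaled), and in the Ly6C low interaction for Il1a (0.013 with pseudocount 0.1, 0.26 with edgeR, 0.26 with DESeq2, 0.96 without libraries 2 and 3). Leaving out 1 library at a time, the sign also turned for Il18 in splenic Ly6C high (-0.041 to 0.24), Il6 in splenic Ly6C low (-0.15 to 0.21), Il12a (-1.29 to 0.00104) and Il27 (-0.034 to 0.52) in hepatic Ly6C high, and Il12b (-0.21 to 0.037), Il1a (-1.48 to 0.20), Il1b (-0.0503 to 0.50) and Il27 (-0.12 to 0.39) in hepatic Ly6C low macrophages. It turned as well for Il18 (-0.00682 to 0.11) and Il27 (-0.28 to 0.21) between the organs in Ly6C low macrophages, Il18 (-0.27 to 0.23) and Il1a (-0.031 to 0.69) in Kupffer cells against Ly6C high macrophages, Ifnb1 (-0.30 to 0.13) and Il1a (-0.66 to 0.31) in the Ly6C high interaction, and Il1a (-1.13 to 0.55) in the Ly6C low interaction. The cause was not tested.

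Over all genes, calls in splenic Ly6C high macrophages went from 2311 to 1145 in 1 fit of all libraries, and in splenic Ly6C low macrophages from 860 to 515 with no filter, 1600 with DESeq2 and 1333 without Rnaset2-/- libraries 1 and 2. In hepatic Ly6C high macrophages they went from 3351 to 5638 in 1 fit of all libraries. Without wild-type hepatic libraries 2 and 3 they were 48 against 3351 there, 1140 against 4620 in hepatic Ly6C low macrophages, 2164 against 3614 between organs in Ly6C low macrophages, 4265 against 6846 and 3635 against 6253 for Kupffer cells against Ly6C high and low macrophages, and 1593 against 3032 in the Ly6C low interaction. Leaving out 1 library moved the splenic Ly6C low count to 357, 190 and 145 (wild-type libraries 1, 2 and 3) and 497 (Rnaset2-/- library 2), the hepatic Ly6C high count to 1781 and 1831 (wild-type 1 and 3) and 1695 and 1826 (Rnaset2-/- 2 and 3), and that of 1178 between wild-type hepatic subsets to 724 (Ly6C high library 3) and 546 (Ly6C low library 3).

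Outside the comparison of Rnaset2-/- hepatic Ly6C low macrophages with Kupffer cells not every same-numbered pair deviated together, so the numbers were not taken as pairs. Between the wild-type hepatic subsets r was -0.14 to 0.55, and both libraries 1 held 0 RPM of Y-linked reads against 28.95 to 52.0 RPM in libraries 2 and 3. Elsewhere the block added Il27 between wild-type splenic subsets (0.59, adjusted p = 0.0323), and Il1a and Il23a between hepatic subsets (-1.08 and -1.38), and lost Tnf between splenic subsets (adjusted p = 0.0602) besides Il18 as above, and changed no other call on a member. The small number of libraries and the few reads of Il23a and Ifnb1 limit what can be shown.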
